A study of Caenorhabditis elegans with 22 samples.

Results

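The change in nuclear-envelope contact that followed mrg-1 RNAi was followed across the genome in intestine cells of first-stage (L1) Caenorhabditis elegans larvae. Contact was read as the log2 ratio of a Dam::EMR-1 library over the GFP::Dam library of the same replicate number, in windows of 100 kb of the 6 nuclear chromosomes, and mrg-1 RNAi was compared with control RNAi in wild-type animals. Of 1005 such windows, 1004 held reads and all 1004 were tested. The comparison used 10 of the 22 libraries of the series: 3 Dam::EMR-1 and 3 GFP::Dam libraries of wild type (replicates 1, 2 and 3), and 2 of each with mrg-1 RNAi (replicates 2 and 3). The submitters dropped 1 further replicate of mrg-1 RNAi on technical grounds.

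The wild-type and mrg-1 RNAi groups shared the same 2 strains, GW1377 with Dam::EMR-1 and GW1378 with GFP::Dam, and differed only in the double-stranded RNA fed to the mothers. L1 larvae were placed on plates of bacteria that made control or mrg-1 double-stranded RNA and grew there for 66 h at 20 °C until they carried embryos. The progeny hatched without food and spent 2.5 h in liquid culture with the Dam-deficient E. coli GM119 before they were frozen as L1 larvae. Both fusions stood under the uninduced hsp-16.41 heat-shock promoter and were switched on in the intestine through FLP recombinase driven by the elt-2 promoter. The only check of the knockdown in the labels is that 2 generations on mrg-1 RNAi left 30 to 50% of F1 adults sterile, which is a longer exposure than the one sampled. RNAi leaves the mrg-1 gene in the genome, and DNA reads neither measure MRG-1 protein nor check the tissue, so these files do not give the depth of the knockdown. The 2 other backgrounds, the deletion cec-4(ok3124) and mrg-1 RNAi in cec-4(ok3124), are used below only where the effect of mrg-1 RNAi was compared between genotypes.

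EMR-1 is the worm emerin, a LEM-domain protein of the inner nuclear membrane. Fused to the bacterial DNA adenine methyltransferase Dam, it leaves methyl marks on GATC motifs of DNA that comes close to the envelope, while GFP::Dam diffuses through the nucleus and marks accessible DNA. In worm nuclei the distal arms of chromosomes, rich in repeats and in histone H3 methylated at lysine 9, lie near the envelope, and the gene-rich centres of the autosomes lie further inside. CEC-4 is the chromodomain protein of the envelope that holds chromatin with methylated H3K9 there, while MRG-1, the worm relative of the mammalian chromodomain protein MRG15, associates with active chromatin and is needed for germline development. The question put to these samples was whether loss of MRG-1 changes where intestinal chromatin meets the envelope.

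The 10 libraries held between 2239914 and 9853789 nuclear reads. The Dam::EMR-1 library of mrg-1 RNAi replicate 3 stood apart in coverage: 571 of 10030 windows of 10 kb held no read there, against 75 in replicate 2 and 161 to 311 in the wild-type libraries. The window with the ribosomal RNA genes, at the right end of chromosome I, took 7.51 to 25.7% of GFP::Dam reads and 0.75 to 1.93% of Dam::EMR-1 reads. Across the 1004 windows, pair ratios of different pairs correlated at Pearson's r of 0.90 to 0.97, as a description of 10 pairs of profiles over windows that share libraries' depth and base composition. Values below are log2 ratios of library-size-scaled counts (CPM) plus 1 for single pairs, and fitted log2 changes from edgeR where a standard error is given for a window. Fewer cells with a contact and fewer contacts per cell cannot be told apart in pooled larvae.

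On average, the centres of autosomes stood closer to the level of the rest of the genome with mrg-1 RNAi, and X stood further below it. Exact two-sided permutation p was 0.2 for the mean of autosome centres and 0.1 for that of X. Taken singly, the centres of IV, V and X overlapped between the groups. Each chromosome was split into a left arm, a centre and a right arm of equal length, giving 18 parts, and 4 of them passed the test (22.2% of parts; limma over 11 pairs of all backgrounds, Benjamini-Hochberg adjusted p under 0.05). The centres of chromosomes I, II and III rose, and the right arm of X fell. No autosome arm passed the test.

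On the centre of chromosome I (5000001 to 10100000, build ce11), the pair ratios were −1.01, −1.04 and −1.24 in wild type and −0.57 and −0.20 with mrg-1 RNAi. Both mrg-1 pairs lay above all wild-type pairs, and the difference was 0.71 ± 0.20 (SE, limma adjusted p = 0.0071). On the centre of III (4600001 to 9200000) the wild-type values were −2.31, −2.0 and −2.50, the mrg-1 values were −1.69 and −1.47, and the groups again did not overlap (0.69 ± 0.20, limma adjusted p = 0.0071). The centre of II (5100001 to 10200000) was the part with the lowest contact in wild type, at −3.40, −3.01 and −3.98, and stood at −2.96 and −2.73 with mrg-1 RNAi. The difference was 0.62 ± 0.20 (SE, limma adjusted p = 0.016), and replicate 2 differed from its wild-type partner by 0.05 and replicate 3 by 1.25. All strains of a replicate were grown in parallel, per the labels, and in a fit with a replicate block the II centre was not called (limma adjusted p = 0.069), while the other 3 calls held.

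The centres of IV and V did not pass the test, but with pair values centred and the replicate block together the IV centre was called (0.31, limma adjusted p = 0.039). The IV centre stood at −1.06, −1.66 and −1.75 in wild type and at −1.2 and −1.28 with mrg-1 RNAi, with overlapping groups. The V centre stood at −1.53, −2.12 and −2.27 against −1.84 and −1.79, which overlapped as well. Within replicate numbers both were nevertheless higher with mrg-1 RNAi, by 0.46 and 0.47 on IV and by 0.28 and 0.48 on V. Wild-type pair 1, which has no mrg-1 partner, was the highest wild-type pair on both.

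The right arm of X (11900001 to 17800000) had pair ratios of −0.81, −1.13 and −0.94 in wild type and −1.39 and −1.71 with mrg-1 RNAi. It fell by 0.60 with a standard error of 0.20 (limma adjusted p = 0.017), and the groups did not overlap. The left arm of X, at −0.64, −0.80 and −0.74 against −0.93 and −1.0, was lower in both mrg-1 pairs without passing the test (−0.24 ± 0.20, limma adjusted p = 0.52). In the centre of X the groups overlapped, with −2.32, −2.46 and −2.64 in wild type and −2.62 and −2.86 with mrg-1 RNAi (−0.27 ± 0.20, limma adjusted p = 0.52). Both parts were called, as lower, with centred pair values and the replicate block together (limma adjusted p = 0.039 each).

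**Figure D1:**
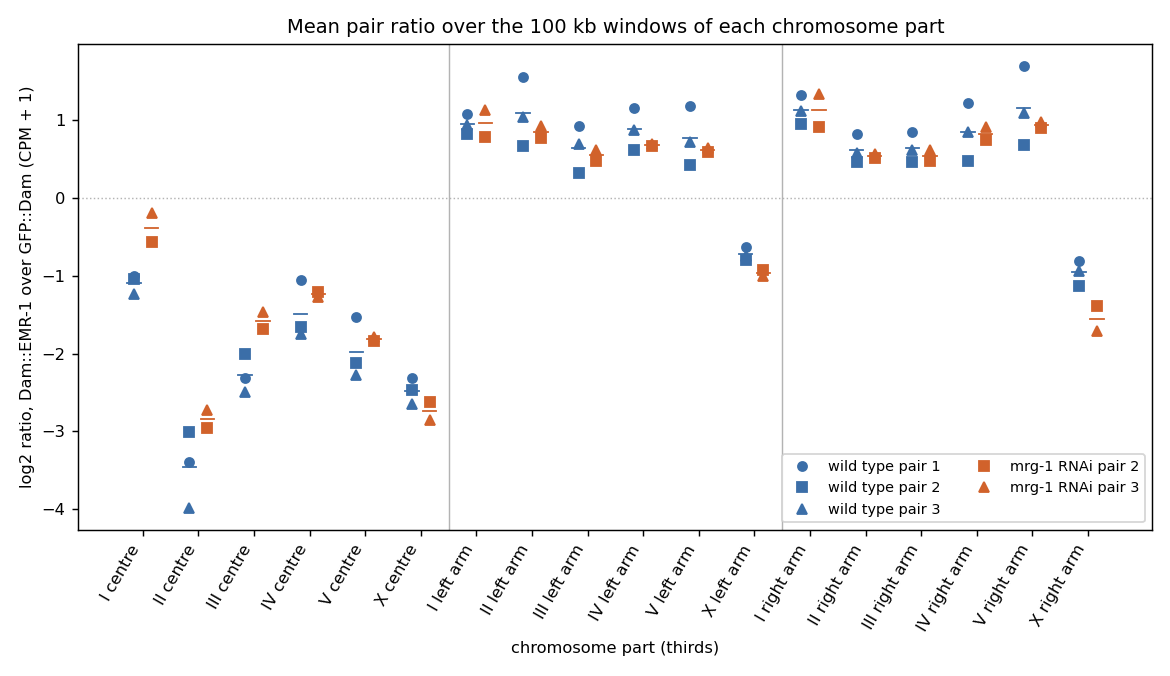
Mean log2 ratio of Dam::EMR-1 over GFP::Dam (y axis, CPM + 1) in the 18 chromosome parts (x axis), with 1 symbol per pair and a bar at the group mean. The mrg-1 RNAi pairs (orange) lie above the wild-type pairs (blue) in the centres of I, II and III and below them in the left and right arm of X, and they lie among them in most autosome arms.

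Differences in the 10 autosome arms ran from −0.24 on the left arm of II to 0.01 on the left arm of I, and none was called. Averaged over all autosome arms, wild-type pairs stood at 1.2, 0.58 and 0.86 and mrg-1 pairs at 0.69 and 0.84. All 4 calls were lost when only the 5 pairs of these backgrounds were fitted, with windows of 10 kb, without wild-type replicate 3 and without mrg-1 RNAi replicate 3, and only the centres of I and III were called with the ribosomal RNA window left out. Parts of a pair share its libraries, which the shared standard error does not count, so the adjusted p-values across parts may be too small.

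Averaged over chromosome classes, autosome centres were higher and X was lower in both mrg-1 pairs than in any wild-type pair. The autosome centres averaged −1.81, −1.97 and −2.32 in wild type and −1.65 and −1.51 with mrg-1 RNAi. The difference of autosome arms minus centres was 3.01, 2.55 and 3.18 in the 3 wild-type pairs and 2.34 and 2.35 in the 2 mrg-1 pairs, a change of −0.57 (exact two-sided permutation p = 0.2). The same difference on X was 1.59, 1.503 and 1.80 against 1.46 and 1.501, so that mrg-1 pair 3 stood level with the lowest wild-type pair and the means differed by −0.15 (exact two-sided permutation p = 0.2). The smallest p that 3 pairs against 2 allow is 0.1.

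The whole of X averaged −1.26, −1.47 and −1.45 in wild type and −1.66 and −1.86 with mrg-1 RNAi, a change of −0.37 (exact two-sided permutation p = 0.1). Autosomes minus X, a contrast chosen after these values were seen, stood at 1.45, 1.195 and 1.24 in wild type and at 1.56 and 1.91 with mrg-1 RNAi (0.44 higher, exact two-sided permutation p = 0.1). Between the centres alone the distance grew from 0.51, 0.50 and 0.32 to 0.97 and 1.35. In 32 such measures, 11 had groups that did not overlap, and the lowest exact permutation p adjusted over them was 0.46. The spread of the profile, as the standard deviation over windows, did not separate the groups: it was 2.19, 1.66 and 2.10 in wild type and 1.70 and 2.01 with mrg-1 RNAi (exact two-sided permutation p = 0.6).

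For autosome centres as a class and for X, the change of the ratio lay mainly in the Dam::EMR-1 libraries. Read shares in this paragraph and the next are percentages of nuclear reads outside the ribosomal RNA window. Autosome centres took 7.85, 8.55 and 7.35% of Dam::EMR-1 reads in wild type and 10.3 and 10.1% with mrg-1 RNAi, 1.29 times the wild-type mean (exact two-sided permutation p = 0.1). X took 8.21, 8.51 and 8.11% in wild type against 7.35 and 5.26%, 0.76 times the wild-type mean (exact two-sided permutation p = 0.1). Neither pair of groups overlapped. In GFP::Dam the share of autosome centres was 28.0, 27.4 and 29.9% against 27.04 and 25.8%, again without overlap. This was 0.93 times the wild-type mean and thus opposite to the Dam::EMR-1 change (exact two-sided permutation p = 0.2). The share of X in GFP::Dam was 22.1, 19.5 and 19.1% against 19.5 and 19.2%, with overlapping groups.

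Of single parts, the I centre went from 2.36 ± 0.41% (SD, n = 3) to 3.73 ± 0.29% (SD, n = 2) of Dam::EMR-1 reads. The right arm of X went from 3.22 ± 0.03% (SD, n = 3) to 2.07 ± 0.61% (SD, n = 2), with 2.50% in replicate 2 and 1.64% in replicate 3. In GFP::Dam these 2 parts stood at 5.06 ± 0.26% and 6.63 ± 0.54% in wild type and at 4.74 ± 0.38% and 6.46 ± 0.05% with mrg-1 RNAi (SD, n = 3 and 2), and both overlapped.

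Window by window, the comparison of ratios gave 0 calls among the 1004 windows (0.0%; edgeR's quasi-likelihood test, Benjamini-Hochberg adjusted p under 0.05). At an unadjusted p under 0.05, 46 windows were higher (4.58%) and 7 were lower (0.697%) with mrg-1 RNAi, and DESeq2 called 1 window. If nothing changed, a share of about 0.05 of windows would pass that unadjusted threshold. These counts alone therefore do not mark windows as changed. In the fit without wild-type Dam::EMR-1 replicate 2, 9 windows were called, all higher. For Dam::EMR-1 alone 2 windows rose (0.199%), both on chromosome III, with 6 calls under the replicate block and 26 with a block for each fusion. This count was 0 without mrg-1 RNAi replicate 3 and without wild-type replicate 1 or 3, 37 without wild-type replicate 2 and 51 without mrg-1 RNAi replicate 2, all libraries of Dam::EMR-1. GFP::Dam alone gave 0 calls (0.0%), with 1 window at an unadjusted p under 0.05 and 0 calls in DESeq2. That is far fewer windows than this threshold would pass without any change. The 0 calls therefore do not show that GFP::Dam was unchanged.

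The 2 windows that rose in Dam::EMR-1 were neighbours. The first, from 4500001 to 4600000 on III, is named here for cdh-4, a Fat-like cadherin that guides neurites and pharynx shape. It held 703, 1062 and 596 Dam::EMR-1 reads in wild type and 2653 and 3675 with mrg-1 RNAi, a fitted change of 1.37 ± 0.24 (SE, edgeR adjusted p = 0.013). The second, from 4600001 to 4700000, holds pfas-1, an enzyme of purine synthesis, and went from 822, 1126 and 661 reads to 2330 and 4782 (1.39 ± 0.29, edgeR adjusted p = 0.040). In GFP::Dam the same windows changed by −0.21 ± 0.25 and 0.12 ± 0.29 (SE).

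Both mrg-1 pair ratios lay above all 3 wild-type pairs in 105 windows (10.5%) and below all of them in 81 (8.07%). Of the 10 ways to split the pairs into 3 and 2, 1 puts both mrg-1 pairs above and 1 puts both below. Both shares are near that level for exchangeable pairs, so this rule alone does not mark a window as changed. The 105 and 81 windows were unevenly spread. Autosome centres held 78 of the higher ones among their 277 windows and 0 of the lower ones. X held 42 of the lower ones among its 178 windows and 1 of the higher ones. Autosome arms, with 549 windows, held 26 higher and 39 lower.

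Among the centres, I had 28 of 51 windows above the wild-type range and III had 25 of 46, while IV had 11 of 59, II had 9 of 51 and V had 5 of 70. On II both replicate numbers were higher than their partner in 23 of the 51 windows. On X the lower windows gathered to the right: 27 of 59 in the right arm, 8 of 60 in the centre and 7 of 59 in the left arm. The median fitted change over all windows was 0.02, and by class it was 0.46 for autosome centres, −0.04 for autosome arms and −0.29 for X. With windows of 10 kb, 628 of 9960 were above the wild-type range (6.31%) and 712 below it (7.15%), and the medians kept their order at 0.37, −0.05 and −0.34.

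Each chromosome was also cut into 10 equal segments. The within-number differences peaked near the middle of I, at 0.58 in replicate 2 and 1.46 in replicate 3 (7500001 to 9100000). On III the fourth segment (4100001 to 5500000) had 13 of 14 windows above the wild-type range, with 0.68 in replicate 2 and 1.22 in replicate 3. The middle of II split the replicates: the fifth segment differed by −0.14 in replicate 2 and by 1.66 in replicate 3, and the sixth by −0.05 and 1.60. Over the last 3 segments of X the differences were −0.21, −0.3 and −0.48 in replicate 2 and −0.63, −0.76 and −1.0 in replicate 3, more negative towards the end in both. The last segment of X (16000001 to 17800000) had 11 of 18 windows below the wild-type range and 0 above it.

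**Figure D2:**
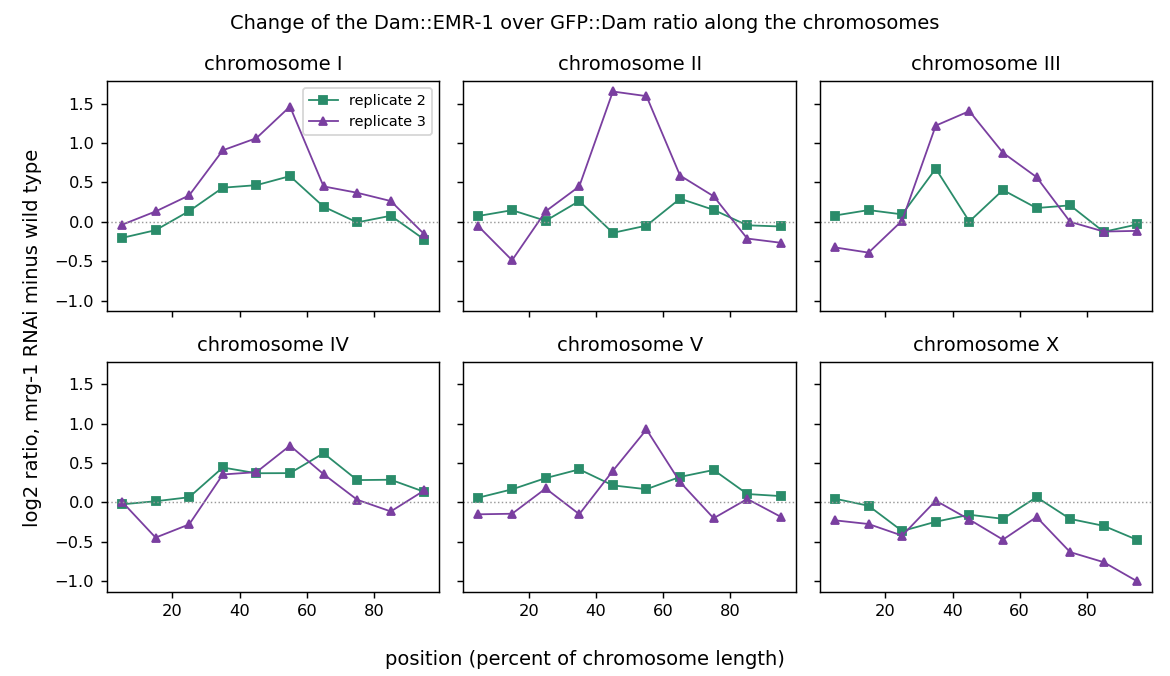
Difference in log2 ratio between mrg-1 RNAi and wild type of the same replicate number (y axis) in 10 segments of each chromosome (x axis, percent of chromosome length), with squares for replicate 2 and triangles for replicate 3. Both replicates are highest near the middle of I and lowest at the right end of X on those chromosomes, while in the middle of II replicate 3 reaches 1.66 and replicate 2 stays near 0.

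The longest run of neighbouring windows outside the wild-type range spanned 12 windows on III, from 4400001 to 5600000. Its mean pair ratios were −1.65, −1.56 and −1.85 in wild type and −0.92 and −0.67 with mrg-1 RNAi. A run of 6 windows, from 3700001 to 4300000, lay just to its left, inside the left arm, which ends at 4600000. The longest lower runs were of 4 windows each, both in the right arm of X, from 16200001 to 16600000 (−0.41, −0.75 and −0.44 against −1.18 and −1.45) and from 16800001 to 17200000 (−1.2, −1.25 and −0.69 against −1.81 and −1.93).

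The 12 windows with the largest fitted change upwards among those outside the wild-type range all lay on autosomes, 10 in a centre and 2 in the part of a left arm next to it. Their changes ran from 1.36 to 2.14 on the log2 scale, and none was called for the ratio (adjusted p from 0.18 to 0.94, edgeR). In other fits 4 of them were called: the window of cdh-4 in DESeq2 (adjusted p = 0.046), those of cdh-4 and let-607 in edgeR with a replicate block for each fusion (adjusted p = 0.030 each), and those of ptc-1, cdh-4 and anc-1 in edgeR without wild-type Dam::EMR-1 replicate 2 (adjusted p of 0.025, 0.025 and 0.032). Without the Dam::EMR-1 library of mrg-1 RNAi replicate 3 the fitted change shrank by over 1.5 times in 8 of the 12, to 0.97 for ptc-1 and 0.57 for cle-1. These values describe windows chosen for their change. In all 12 the Dam::EMR-1 change was positive and larger in size than the GFP::Dam change.

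The largest change was in the window of ptc-1 (II, 7800001 to 7900000), a Patched-family membrane protein. Its pair ratios were −5.45, −4.3 and −6.09 in wild type and −4.2 and −2.37 with mrg-1 RNAi, a fitted 2.14 ± 0.67 (SE). It rested on 57, 166 and 28 Dam::EMR-1 reads in wild type and 208 and 747 with mrg-1 RNAi, so that replicate 2 lay just outside the wild-type range and replicate 3 well above it. The window of pkc-1 (V, 12000001 to 12100000), a protein kinase C, was likewise low, at −4.18, −4.22 and −6.36 against −4.17 and −2.96. There replicate 2 differed from the nearest wild-type pair by less than the wild-type pairs differed among themselves.

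On III, 4 such windows were named. That of cdh-4 stood at −1.99, −2.10 and −2.20 in wild type and −1.03 and −0.20 with mrg-1 RNAi, and had the smallest adjusted p of the ratio comparison (1.58 ± 0.35, edgeR adjusted p = 0.18). That of larp-1, a La-related RNA-binding protein, stood at −2.76, −2.54 and −2.64 against −1.77 and −1.0. The window of rev-3, the catalytic subunit of DNA polymerase zeta, stood at −2.83, −2.46 and −4.32 against −2.20 and −1.25. That of rbf-1, a rabphilin of synaptic vesicles, went from −1.44, −1.05 and −2.20 to −0.86 and 1.07, so only replicate 3 crossed 0.

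On I, 5 windows were named: those of cle-1 (a type XVIII collagen of basement membranes), let-607 (a CREBH-like bZIP factor), unc-63 (a subunit of the acetylcholine receptor of muscle), lsy-22 (a Groucho-related protein) and anc-1. The unc-63 window stood at −1.17, −0.60 and −1.0 in wild type and at −0.01 and 0.97 with mrg-1 RNAi. The let-607 window stood at −0.94, −1.35 and −0.99 against −0.27 and 1.03, and that of lsy-22 at −0.88, −1.19 and −0.90 against −0.71 and 1.17. In all 3 windows replicate 3 stood above 0 and every wild-type pair below it. The anc-1 window, which holds the giant KASH protein that tethers nuclei to actin, went from −1.47, −0.57 and −1.25 to −0.30 and 0.76. The window of cle-1 also holds lmn-1, the only lamin gene of the worm, and stood at −1.91, −0.86 and −1.61 against −0.60 and 1.13. The window of magu-4 on IV, a membrane-associated guanylate kinase, stood at −1.40, −1.48 and −1.32 against −1.09 and 0.64.

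**Figure D3:**
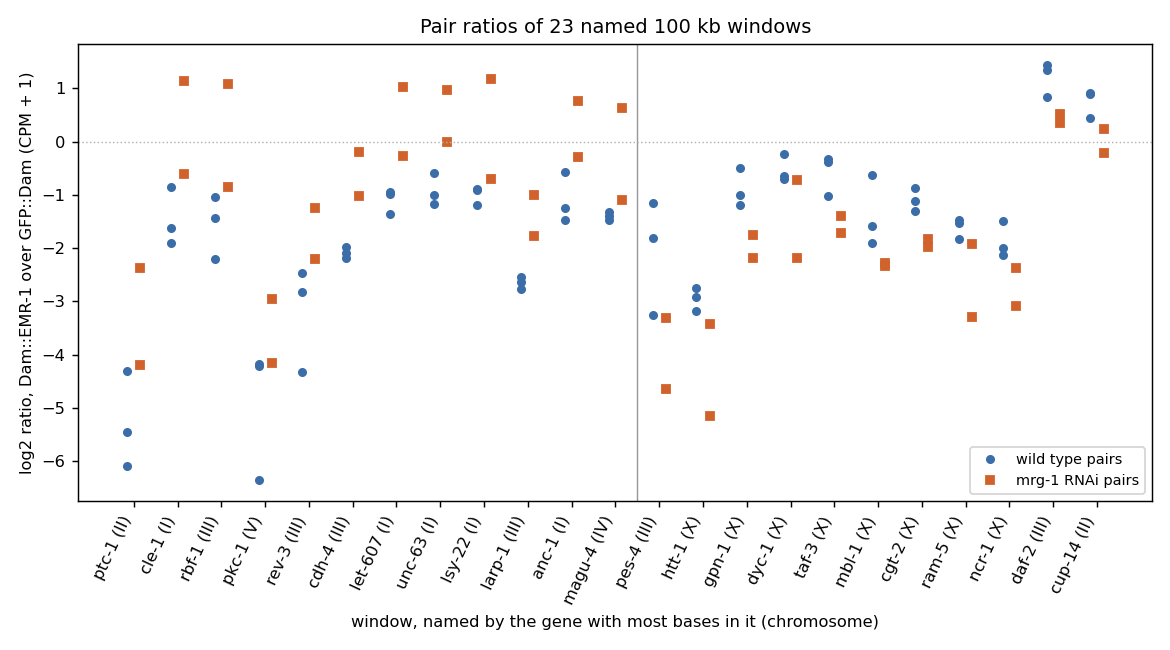
Log2 ratio of Dam::EMR-1 over GFP::Dam (y axis, CPM + 1) in 23 named windows of 100 kb (x axis), with blue circles for the 3 wild-type pairs and orange squares for the 2 mrg-1 RNAi pairs. The 12 windows left of the line were chosen for higher and the 11 to its right for lower mrg-1 values. By that choice all mrg-1 values lie outside the wild-type range of their window, and in several windows, such as ptc-1 and cle-1, replicate 3 lies far beyond replicate 2.

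Of the 12 windows with the largest change downwards, 8 lay on X and 6 of these in its right arm. Their changes ran from −1.58 to −0.68, and none was called (adjusted p from 0.68 to 1.00, edgeR). Leaving out 1 library moved the fitted change by over 1.5 times in 11 of these 12, and taf-3 was the exception. In 11 of the 12 the Dam::EMR-1 change was larger in size than that of GFP::Dam.

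In the right arm of X, the window of taf-3, a subunit of the general transcription factor TFIID, stood at −0.33, −1.03 and −0.38 in wild type and at −1.40 and −1.72 with mrg-1 RNAi (−0.88 ± 0.34, SE). It had the lowest p of the 12. The window of mbl-1, the Muscleblind splicing factor, stood at −1.91, −1.59 and −0.62 against −2.34 and −2.29. That of gpn-1, a glypican, stood at −0.49, −1.2 and −1.01 against −1.76 and −2.19. In these 3 windows both replicates were clear of the lowest wild-type pair.

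The window of dyc-1, a partner of dystrophin in muscle, instead had replicate 2 beside the lowest wild-type pair (−0.24, −0.71 and −0.64 against −0.72 and −2.19). That of ram-5, a gene of male tail ray shape, stood at −1.82, −1.53 and −1.48 against −1.93 and −3.30. That of cgt-2, a ceramide glucosyltransferase, is the last window of X and stood at −1.12, −1.31 and −0.88 against −1.99 and −1.83. Outside the right arm, the window of htt-1, the worm huntingtin, in the centre of X went from −2.92, −3.19 and −2.76 to −3.42 and −5.16. That of ncr-1, a Niemann-Pick C1 sterol transporter, in the left arm went from −1.49, −2.0 and −2.12 to −2.37 and −3.10.

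The 4 lower windows on autosomes all lay in arms. The window of daf-2, the insulin receptor of the worm, had among the highest contact of those named, at 1.44, 0.85 and 1.35 in wild type, and stood at 0.52 and 0.35 with mrg-1 RNAi. That of cup-14 on II went from 0.90, 0.44 and 0.91 to 0.23 and −0.21. That of pes-4 on III had the largest fitted fall of the 12, −1.58 ± 0.98 (SE), which ran from −2.88 to −0.90 without single libraries, but its wild-type pairs were spread from −3.25 to −1.16, against −3.31 and −4.65.

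To see whether the change followed the wild-type level, windows were grouped by their ratio in wild-type pair 1, which enters neither within-number difference. The 2 replicates did not share one relation. In autosome centres, replicate 2 differed by −0.07 in the 62 windows below −3, by 0.18 in the 63 windows from −3 to −2 and by 0.65 in the 32 windows from 0 to 1. Replicate 3 differed by 1.16, 0.59 and 0.61 in the same windows.

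At a like wild-type level, autosome centres and X stood apart in both replicates. Between −1 and 0 in wild-type pair 1, the 44 windows of autosome centres were higher by 0.50 in replicate 2 and 0.71 in replicate 3. The 54 windows of autosome arms at that level differed by 0.07 and −0.11, and the 36 windows of X by −0.08 and −0.46. Between −2 and −1 the means were 0.43 and 0.88 in autosome centres and −0.25 and −0.79 on X. Autosome arms above 2, the windows with the strongest contact, differed by 0.14 and 0.11.

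**Figure D4:**
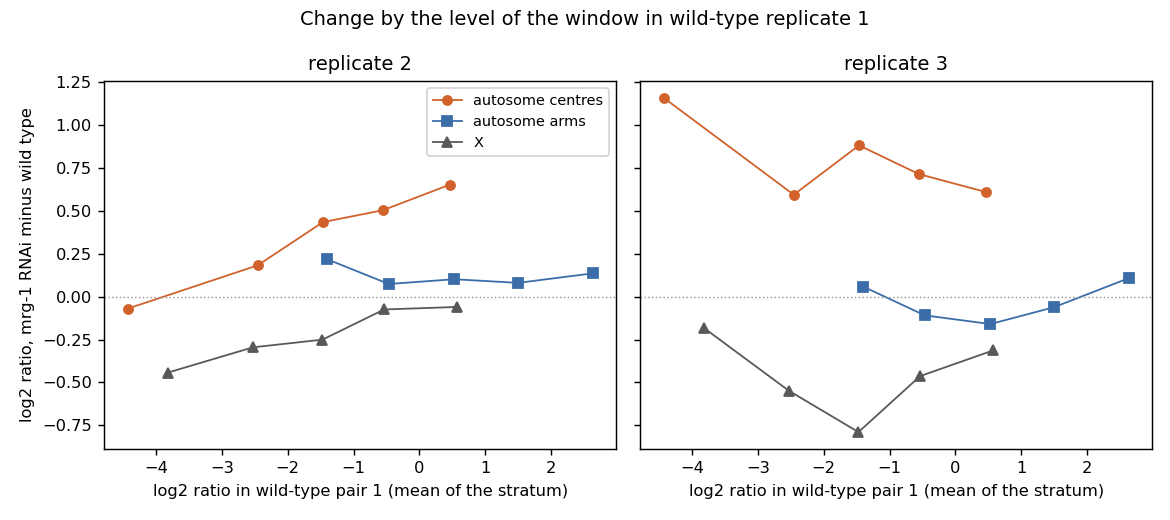
Mean within-number difference in log2 ratio between mrg-1 RNAi and wild type (y axis) against the mean log2 ratio of the stratum in wild-type pair 1 (x axis), for autosome centres, autosome arms and X, in replicate 2 (left) and replicate 3 (right). At levels where all 3 classes have windows, the autosome centres lie above the arms and X lies below them in both replicates; in the lowest stratum of the autosome centres replicate 2 is at −0.07 and replicate 3 at 1.16.

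Across all windows the within-number differences of replicates 2 and 3 correlated at r = 0.26, and 62.2% of windows had the same sign in both, as a description over 1004 windows. The spread of the differences over windows was larger in replicate 3 (SD 0.88) than in replicate 2 (SD 0.40). Both replicates were higher than their partner in 176 of 277 windows of autosome centres (63.5%) and lower in 13 (4.69%). On X both were lower in 97 of 178 windows (54.5%) and higher in 21 (11.8%). Within autosome centres alone the differences of the 2 replicates correlated at r = −0.08 over 277 windows.

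Over all windows the fitted change correlated with gene density at r = 0.25, as a description over 1004 windows. In 3 equal groups by number of protein-coding genes, median fitted changes in autosome centres were 0.53, 0.45 and 0.43 from the fewest to the most genes, and on X they were −0.29, −0.29 and −0.30. In autosome arms these medians were −0.08, −0.01 and −0.01, and the within-number differences were higher with more genes in both replicates (−0.01, 0.11 and 0.22 in replicate 2, −0.11, −0.02 and 0.07 in replicate 3). On IV, 54 windows with at least 50 piRNA genes each, 14124 such genes in all, had pair ratios of 1.52, 0.63 and 1.06 in wild type and 0.90 and 1.13 with mrg-1 RNAi. These groups overlapped, with 1 window above and 1 below the wild-type range.

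Genes of the machinery itself lay on both sides. The window of cec-4 in the centre of IV stood at −2.57, −2.68 and −3.44 in wild type and at −2.05 and −1.97 with mrg-1 RNAi, above the wild-type range (0.94 ± 0.48, SE, edgeR adjusted p = 0.94). The window of mrg-1, in the right arm of III, was high in contact at 2.87, 1.70 and 2.28 and stayed there at 1.78 and 2.69, with overlapping groups. Those of emr-1 (−0.26, 0.69 and 0.74 against 0.11 and 0.50) and hsp-16.41, whose promoter drives the fusions (1.09, 0.30 and 0.62 against 0.33 and 0.16), overlapped. That of elt-2, the GATA factor of the intestine, on X, overlapped too (−2.48, −2.28 and −2.85 against −2.35 and −3.52). The window of lem-2, the other LEM-domain protein of the envelope, was below the wild-type range at −0.37 and −0.65 against 0.49, 0.03 and −0.19, although its fitted change turned positive without GFP::Dam mrg-1 RNAi replicate 3.

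In windows of 10 kb, 13 gene lists were described by their counts beside the 6.31% and 7.15% of all windows outside the wild-type range. No list had a called window. The median over all windows of 10 kb in autosome centres was 0.37. The 107 windows with ribosomal protein and proteasome genes had a median change of 0.55, with 15 above and 1 below the wild-type range, and 45 of them lay in autosome centres and 1 on X. The largest changes in it were rps-15 (4.28 ± 1.64, SE) and rps-14 (3.88 ± 1.77), both genes of the small ribosomal subunit, and the lowest were rpl-11.2 on X (−2.01 ± 1.51) and rpl-27A on I (−1.96 ± 1.61). The 37 windows with germline genes had a median of 0.41, with 8 above and 0 below, and 23 of them lay in autosome centres and 0 on X. Among these were glh-2, a Vasa-like helicase of germ granules (2.25 ± 1.25), and wago-1, a germline Argonaute (2.04 ± 1.19), both on I, and the lowest were pie-1, a repressor of transcription in germ cells (−0.89 ± 1.14), and glh-4 (−0.83 ± 0.87).

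Intestine genes, of which 10 of 32 windows lay on X, had a median of −0.19 with 2 windows above and 2 below the wild-type range. The window of vit-1, a vitellogenin gene on X, stood at −0.14, −1.45 and −0.15 in wild type and at −2.50 and −4.2 with mrg-1 RNAi, while that of pho-1, an intestinal acid phosphatase on II, overlapped (−2.92, −3.74 and −6.21 against −5.17 and −7.57). The 18 windows of anchoring genes had a median of −0.37 with 2 above and 2 below, and the 21 of MRG-1 and acetylation genes one of 0.08 with 4 above and 0 below. In the latter, the window of set-2, an H3K4 methyltransferase, stood at −3.52, −1.08 and −3.59 against −0.75 and 1.32, and that of mrg-1 itself at 0.50, 0.24 and 0.15 against 0.67 and 2.98.

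The other members at the ends of these lists were the intestine genes asp-1 (1.89 ± 1.52), an aspartic protease, and vit-2 (1.52 ± 1.66), the anchoring genes lmn-1 (1.86 ± 2.02), cec-4 (1.90 ± 0.80), emr-1 (−1.17 ± 0.64) and lem-2 (−2.25 ± 1.2), the deacetylase gene hda-3 (−1.25 ± 1.22) and the remodeller gene chd-3 on X (−1.23 ± 0.87), all with SE. Of these, the windows of cec-4 and emr-1 lay outside the wild-type range. Muscle genes had a median of 0.07 (0 above and 2 below among 22 windows). Their highest were the twitchin gene unc-22 (1.27 ± 0.94) and hlh-1 (0.92 ± 0.77), the MyoD relative, and their lowest the tropomyosin gene lev-11 on I (−1.09 ± 0.76) and myo-2 on X (−0.98 ± 1.16). Neuron genes had a median of −0.06 (3 above and 2 below among 28), from snt-1, a synaptotagmin (2.69 ± 1.69), and egl-21, a carboxypeptidase of neuropeptides (1.88 ± 1.82), down to mec-3 (−0.94 ± 1.74) and mec-4 on X (−1.41 ± 0.84), both genes of touch neurons.

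Apart from histone genes, the large gene families had medians at or below 0. Of the members named in this paragraph, sri-18, btb-2, clec-180, nhr-232, nhr-38, nhr-126, nhr-134, col-159, col-160 and his-24 had windows outside the wild-type range. The others overlapped, as did srw-62 (−2.99, −4.07 and −2.31 against −1.66 and −3.29) despite its large fitted change. The genes sri-18 and nhr-232 share 1 window, as do clec-180 and cec-4. Chemoreceptors stood at −0.12, with 15 windows above and 46 below the wild-type range among 790, and ran from srw-62 (5.82 ± 4.28) and sri-18 (3.85 ± 1.11) to srh-201 (−3.14 ± 2.64) and sra-26 (−3.42 ± 3.84). The families of F-box, MATH or BTB proteins stood at −0.26, with 10 above and 19 below among 261, from btb-2 (4.70 ± 1.57) and fbxb-85 (1.82 ± 1.41) to fbxa-42 and fbxa-48, which share a window (−4.21 ± 2.42). Genes for C-type lectins stood at −0.01, with 7 above and 14 below among 172, from clec-221 (2.24 ± 1.60) and clec-180 (1.90 ± 0.80) to clec-218 (−2.44 ± 1.2) and clec-162 (−2.49 ± 2.27). For nuclear hormone receptors the median was −0.05, with 10 above and 12 below among 200, from nhr-232 (3.85 ± 1.11) and nhr-38 (3.12 ± 1.62) to nhr-126 and nhr-134, neighbours in 1 window (−2.85 ± 1.24). Collagen and body-shape genes had a median of −0.06, with 12 above and 13 below among 170, from col-159 and col-160 in 1 window (2.55 ± 1.22) to col-125 (−2.49 ± 2.13) and dpy-23, a clathrin adaptor subunit rather than a collagen (−2.50 ± 1.73). Histone genes had a median of 0.37, with 3 above and 1 below among 21, from his-40 (2.90 ± 1.09) and his-57 (2.16 ± 1.52) to his-24, a linker histone (−2.20 ± 1.23), and his-71, an H3.3 variant (−4.03 ± 1.83).

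The effect of mrg-1 RNAi was also measured in cec-4(ok3124) larvae, in 12 other libraries, and there the 3 parts of X were the only ones called. The left arm, centre and right arm of X fell by 0.50, 0.54 and 0.57 in that genotype (limma adjusted p of 0.040, 0.028 and 0.028, SE 0.18 each). X averaged −0.65, −0.83 and −0.58 in cec-4 and −1.38, −0.99 and −1.31 with mrg-1 RNAi in cec-4 (exact two-sided permutation p = 0.1, the smallest possible), without overlap. Replicate 2 had the smallest within-number difference there, at −0.16, against −0.73 in both of the others. The mean over all windows was also lower with mrg-1 RNAi in cec-4, by 0.13. The 3 calls in cec-4 come from the main fit alone. The alternatives run for the parts in wild type, such as centring or leaving out the ribosomal RNA window or single pairs, were not run for them.

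No autosome part passed the test in cec-4. Autosome centres overlapped, at −0.94, −1.07 and −0.78 in cec-4 and −0.69, −0.98 and −1.02 with mrg-1 RNAi in cec-4, as did autosome arms minus centres, at 1.82, 1.61 and 1.59 against 1.48, 1.52 and 1.67. The III centre was the exception, higher in all 3 combined pairs (−0.62, −0.88 and −0.89 against −1.06, −1.08 and −0.96) without a call. The I centre had a larger rise, 0.36 ± 0.18 (SE, limma adjusted p = 0.22), with overlapping groups. Within replicate numbers 1, 2 and 3 it was higher by 0.75, 0.18 and 0.15. The difference between the genotypes itself was not called in any part or window: the II centre had the largest difference, 0.56 ± 0.27 (SE, limma adjusted p = 0.71), and edgeR called 0 of 1004 windows (0.0%), with 11 at an unadjusted p under 0.05 and 0 calls in DESeq2. The effect on the right arm of X was −0.60 in wild type and −0.57 in cec-4, a difference of −0.02 ± 0.27 (SE).

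**Figure D5:**
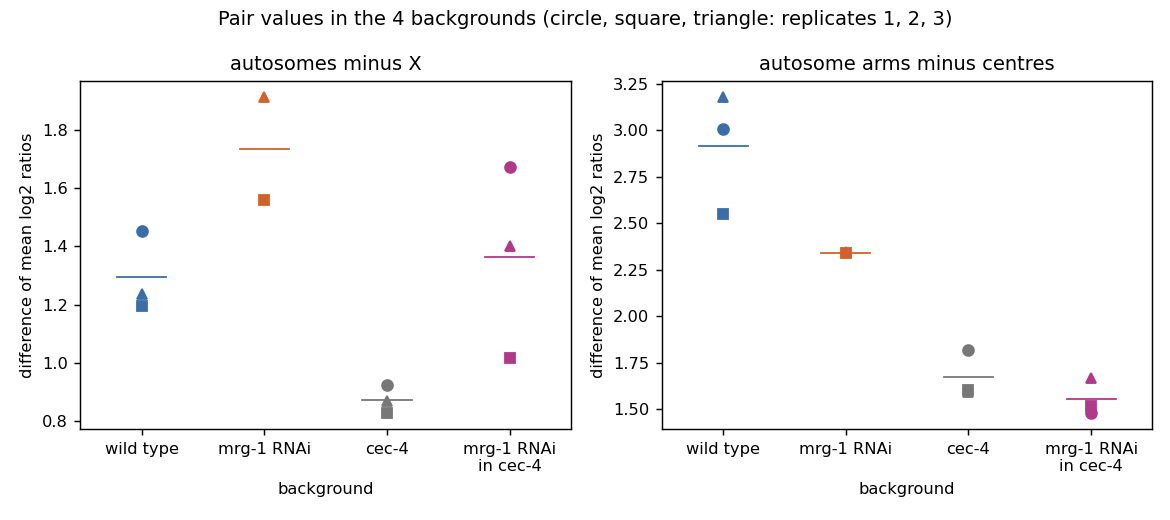
Difference of mean log2 ratios between autosomes and X (left) and between autosome arms and centres (right), y axes, for each pair of the 4 backgrounds, x axes, with a bar at the group mean. Autosomes minus X is higher with mrg-1 RNAi than without it in both genotypes, while autosome arms minus centres is lower with mrg-1 RNAi in wild type and overlaps in cec-4.

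In the authors' deposited table, the mrg-1 minus wild-type difference averaged 0.39 over autosome centres, −0.15 over autosome arms and −0.38 over X, and −0.04 over all windows. Among parts of the authors' deposited table it was highest in the I centre, at 0.70, and lowest in the right arm of X, at −0.61.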

How the data were processed

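The values analysed were the authors' deposited counts of mapped reads per 100 kb and 10 kb window of build ce11, per the submitters' processing notes. The authors' deposited log2 ratios, 1 value per background with replicates combined, were only described. For the aligner and read filters nothing is given in the sources used here. Windows of 100 kb were tested with edgeR 4.0.16 (quasi-likelihood, TMM, filterByExpr, 1 fit over 22 libraries and 8 groups), and the 18 chromosome parts with limma 3.58.1 on pair log2 ratios of CPM + 1, in R 4.3.3. Single values were tested with exact permutations of pairs. Replicate numbers pair the libraries because, per the labels, all strains of a replicate were grown in parallel. Same-numbered libraries of the 2 backgrounds deviated together at r = 0.78 and 0.38 in GFP::Dam and at 0.04 and 0.30 in Dam::EMR-1. The replicates are called biological in the labels. Genes were placed with RefSeq coordinates of WBcel235, which is ce11. Named windows were the 12 with the largest change each way among those outside the wild-type range, at most 1 per 500 kb, each named by the protein-coding gene that covers most of its bases and has a standard symbol, and 1 of them is not reported here. The windows, parts and gene lists were chosen with earlier results of these data known. Alternatives were other scaling, filters, bin sizes, pseudocounts (CPM + 5), arm borders, DESeq2 1.42.0, the replicate block and leaving out each library or pair. Per-window precision is limited by 28 to 10012 Dam::EMR-1 reads in the windows named, and PCR-amplified reads are not independent molecules.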

Additional observations from a re-analysis of the deposited data

Results flagged for a closer look

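In 3 measures every same-numbered pair moved up with mrg-1 RNAi in wild type and every one moved down in cec-4. The library sizes behind these values include the ribosomal RNA window. Its share of GFP::Dam reads in replicates 2 and 3 was 7.51 and 12.6% in wild type, and 10.3 and 22.3% with mrg-1 RNAi. In cec-4 replicates 1, 2 and 3 it was 31.4, 7.17 and 25.8%, and 22.4, 7.85 and 20.0% with mrg-1 RNAi. Whether the 3 measures keep these signs without that window was not tested. The differences between genotypes below are of group means, which include wild-type pair 1 without a partner, so they do not follow from the within-number values beside them, and none was tested on its own beyond the fits given above. For the mean over all windows, the within-number differences were 0.11 and 0.14 in wild type and −0.11, −0.002 and −0.29 in cec-4, while the group means differed by −0.004 in wild type and −0.13 in cec-4, 0.13 apart. For chromosome V, the within-number differences were 0.23 and 0.10 in wild type and −0.11, −0.06 and −0.41 in cec-4, while the group means differed by −0.07 and −0.19, 0.12 apart. For the V centre they were 0.28 and 0.48 in wild type and −0.09, −0.03 and −0.60 in cec-4, while the group means differed by 0.16 and −0.24, 0.40 apart, and limma gave that difference an adjusted p of 0.75.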

How the results depend on the processing

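No window was called for the ratio with TMM or library-size scaling, with or without the filter on low counts, with 10 kb windows, with the 10 libraries alone, with the ribosomal RNA window left out, with limma on pair ratios or under the replicate block. DESeq2 called 1 window, and the replicate block per fusion called 2. Leaving out 1 library gave 0 to 9 calls. For Dam::EMR-1 alone, against 2 calls, there were 0 with 10 kb windows, 0 with library-size scaling, 0 with the 10 libraries alone, 16 in DESeq2 (where 137 windows had no adjusted p), 6 with the replicate block and 26 with the block per fusion. Without single libraries they ran from 0 to 51. GFP::Dam alone and the difference between genotypes gave 0 calls in each alternative run.

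Against 4 chromosome parts, 0 were called with 10 kb windows and 0 with the 5 pairs alone, 2 with the ribosomal RNA window left out, 7 with pair values centred and the replicate block together (4 higher and 3 lower), and 0 to 4 without single pairs. The 4 called parts kept their direction in all 14 settings, with the I centre from 0.53 to 0.90, the II centre from 0.36 to 0.84, the III centre from 0.58 to 0.83 and the right arm of X from −0.75 to −0.44. The change in autosome arms minus centres stayed between −0.75 and −0.44, that on X between −0.22 and −0.07 and that in autosomes minus X between 0.26 and 0.62; with the replicate block they were −0.52, −0.17 and 0.52. The change in spread ran from −0.29 to 0.024 without single pairs and turned positive without mrg-1 RNAi replicate 2. Of the 9981 windows of 10 kb with reads, before the filter on low counts, 6.29% were above the wild-type range. Without single libraries the fitted change ran from −0.33 to 0.46 at mrg-1, from −0.54 to 0.36 at emr-1, from −1.01 to 0.13 at lem-2 and from −0.65 to 0.13 at elt-2, so that the sign of the fit in these 4 windows depends on single libraries. The cause of these shifts was not tested. The alternatives with the ribosomal RNA window left out, the centring with the block, and those for autosomes minus X and windows outside the wild-type range were chosen after the data were seen.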
